A study of Mus musculus with 6 samples.

Results

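The genes described here are 32 genes of glycolysis and of the response to low oxygen. They were measured in samples taken as forestomach epithelium, from control mice and from mice with a Sox2 transgene. They were taken by name from the arrays' gene annotation and fall into 15 glycolytic enzymes, 3 fuel transporters with the kinase Pdk1, and 13 hypoxia genes. All 32 were among the 20131 genes tested, through 56 probes in all. A single member, Ndrg1, passed the test (1 of 32, against 2.88% of all genes) and rose 3.19-fold in mutants. Its adjusted p of 0.0455 in limma was close to the threshold of 0.05, and the call was kept in 8 of 21 alternative fits. The difference between mutants and controls was above 0 for 25 of the 32 genes (50.7% of all genes) and below 0 for 7, and the size of many of these differences rested on 1 mutant array and 1 control array that stood apart from the rest.

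The mice carried K5-CreER, a recombinase made from the keratin 5 promoter and switched on by tamoxifen, so that it acts in the basal cells of stratified epithelia. Controls had K5-CreER alone and mutants were K5-CreER;Rosa26Sox2/Sox2, that is, homozygous for Sox2 inserted at Rosa26, and the design calls the comparison one of wildtype with Sox2 overexpression. Mice of both groups were given 2 doses of tamoxifen at 7 weeks of age, were 12 weeks old per the labels and had a mixed 129/Sv and C57/BL6 background. Each group has 3 arrays described as biological replicates. On every array RNA of the epithelial sheet, labelled with Cy5, was hybridised together with Agilent's Universal Mouse Reference RNA, a mix from 11 cell lines of the mouse, in Cy3, and values are log2 of sample over reference. No label says whether animals were pooled, so p-values measure only the spread between these samples, which may be technical. In such bulk samples, fewer cells of a type and less RNA per cell cannot be told apart.

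Glycolysis splits glucose into pyruvate, which lactate dehydrogenase can turn into lactate when oxygen is short or when cells grow fast. Hexokinase and phosphofructokinase hold the main control points, Slc2a1 brings glucose into the cell and Slc16a1 and Slc16a3 carry lactate across the membrane. When oxygen falls, the protein of Hif1a escapes degradation and binds short DNA elements beside many of these genes. Its activity is set largely at the protein level, which an array of RNA does not measure. Proliferating basal keratinocytes of stratified epithelia are known to use glycolysis.

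The letters that the hypoxia-inducible factor reads are ACGTG or GCGTG, and both were searched on both strands in the 250 bases before each annotated start, in RefSeq sequence of build GRCm38.p6. A window was at hand for 31 of the 32 members, all but Ndrg1. At least one window of 20 of the 31 genes held ACGTG (64.5%, against 18.5% of 27025 genes), 21 held GCGTG (67.7% against 30.9%) and 29 held either (93.5% against 41.5%). The palindrome CACGTG, which contains ACGTG on both strands, stood in 5 (16.1% against 6.86%). The median share of G and C was 62.8% in members' windows and 52.4% over all windows. ACGTG was found for 7 of 15 enzymes, 3 of the 4 genes of transport and Pdk1, and 10 of the 12 hypoxia genes with a window. Gpi1 and Tpi1 had neither motif in the window. A match describes letters and is not evidence of binding. The windows shown are those of the gene with the largest difference between groups, among genes with a window, in the enzymes (Pgk1), the transporters (Slc16a3) and the hypoxia genes (Hif1a), with Gpi1 as a gene without a match. Capitals mark ACGTG or its reverse complement, or both where they overlap, and each run ends at the base before the start.
Pgk1, chrX:106186850-106187099, plus strand: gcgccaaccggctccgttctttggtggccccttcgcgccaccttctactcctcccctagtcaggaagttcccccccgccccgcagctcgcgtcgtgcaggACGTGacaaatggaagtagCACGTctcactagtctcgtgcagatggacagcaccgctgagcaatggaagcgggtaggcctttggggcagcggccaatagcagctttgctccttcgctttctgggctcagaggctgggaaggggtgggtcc
Slc16a3, chr11:120948817-120949066, plus strand: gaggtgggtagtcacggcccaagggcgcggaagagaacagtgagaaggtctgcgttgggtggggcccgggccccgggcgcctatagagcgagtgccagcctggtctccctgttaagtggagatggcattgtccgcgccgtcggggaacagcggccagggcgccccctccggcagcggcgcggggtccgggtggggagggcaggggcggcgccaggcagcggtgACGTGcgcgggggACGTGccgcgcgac
Hif1a, chr12:73907617-73907866, plus strand: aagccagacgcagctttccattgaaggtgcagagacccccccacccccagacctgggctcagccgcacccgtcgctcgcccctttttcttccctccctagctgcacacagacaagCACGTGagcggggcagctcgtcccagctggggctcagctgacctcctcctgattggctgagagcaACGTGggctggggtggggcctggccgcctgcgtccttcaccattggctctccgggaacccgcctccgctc
Gpi1, chr7:34230337-34230586, minus strand: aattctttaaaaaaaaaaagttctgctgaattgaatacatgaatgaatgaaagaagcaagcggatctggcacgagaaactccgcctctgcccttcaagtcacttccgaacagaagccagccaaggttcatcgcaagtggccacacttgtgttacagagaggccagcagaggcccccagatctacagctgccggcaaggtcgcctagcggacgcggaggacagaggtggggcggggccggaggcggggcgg

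The arrays were not equally distinct. In the sample channel, the share of probes well above background was lowest on control 3 (62.6%) and highest on mutant 1 (76.2%). The scaled median absolute difference over all genes was 0.16 between controls 1 and 2 and 0.10 between mutants 2 and 3, against 0.33 to 0.73 for every other pair, and no label says why these pairs are so alike. Controls 1 and 2 shared a slide, control 3 had a slide and a scan day of its own, and the mutants shared yet another slide. No slide held both genotypes, whose effects cannot be told apart from those of the slides. The 8 squamous markers gave a summed sample signal of 1157000 to 1787000 on control arrays and 1225000 to 1308000 on mutant arrays. The 11 glandular stomach markers gave 1486000, 1377000 and 6291 on controls 1 to 3. On mutants 1 to 3 they gave 311300, 1220000 and 871200. Glandular stomach signal was thus high on most arrays and differed widely between them. Sox2, at a probe whose place relative to the transgene's sequence was not determined here and which therefore does not check the labels, read 6.24 ± 0.15 in controls and 5.82 ± 0.14 in mutants (SD, n = 3, adjusted p = 0.143 in limma). Its difference of -0.43 ran from -0.79 with processed signals to 0.10 with the arrays scaled to one spread, and passed only with array weights (-0.20, adjusted p = 0.0314 in limma). The Gt(ROSA)26Sor transcript of the targeted locus fell from 1.05 ± 0.23 to -2.65 ± 0.08 (adjusted p = 0.00115 in limma).

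Over all genes, 580 of 20131 passed limma's test at a Benjamini-Hochberg adjusted p below 0.05 (2.88%), 288 of them higher in mutants (1.43%) and 292 lower (1.45%). Among members 1 of 32 passed, which is near that share. The probes that stood for the members were all well above background on all 6 arrays, and none of them was saturated. The 3 mutant arrays lay above the 3 control arrays for 18 of the 32 members, against 19.7% of all genes, and below them for 3, against 18.2%. At an unadjusted p below 0.05 there were 17 members, against 23.9% of all genes. The members were chosen with earlier results of these data known, so these counts describe the list and no test was made of it.

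The glycolytic enzymes tended to higher ratios in mutants, though none passed the test over all genes. The difference was above 0 for 12 of the 15 (50.7% of all genes), and the median difference was 0.48 on the log2 scale against 0.01 over all genes. Mutant and control arrays did not overlap for 10 enzymes with mutants higher (Gpi1, Pfkl, Aldoa, Aldoc, Tpi1, Gapdh, Pgk1, Pgam1, Eno1 and Pkm2) and for 1 with mutants lower (Hk1). Over all genes these shares were 19.7% and 18.2%. The median ratio of the 15 enzymes was -0.83, -0.83 and -1.27 on controls 1 to 3 and -0.35, -0.60 and -0.44 on mutants 1 to 3, so the lists' medians did not overlap either.

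At the entry of the pathway the members had differences of both signs. Hk1 and Hk2, the hexokinases that trap glucose in the cell, differed by -0.41 (SE 0.12, adjusted p = 0.118 in limma) and -0.07. Gpi1, which turns glucose 6-phosphate into fructose 6-phosphate, differed by 0.70 (SE 0.21, adjusted p = 0.128 in limma). The phosphofructokinase subunits of liver, muscle and platelet type, which make the committed step together, differed among themselves. Pfkl differed by 0.48, with the lowest mutant and the highest control both at -0.78, Pfkp by 0.32 with overlapping groups and Pfkm by -0.09. Without mutant 1 these differences were 0.32, 0.09 and 0.01, and without control 3 that of Pfkp was 0.15.

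The lower steps held the enzymes with the smallest p-values. Aldoa (probe at chr7:133938799-133938858, build mm9), the aldolase that cleaves the 6-carbon sugar, read -0.41, -0.37 and -0.38 on controls 1 to 3 and 0.17, 0.10 and 0.08 on mutants 1 to 3. The groups did not overlap and each was tight, and the difference was 0.50 (SE 0.10, adjusted p = 0.0638 in limma). Only 0.24 of it lay in the sample channel, with -0.26 in the reference channel. Pgk1 (chrX:103398767-103398826), which makes the first ATP of the pathway, read -2.12, -2.05 and -2.44 on the controls and -0.92, -1.56 and -1.35 on the mutants. Mutant 1 was highest and control 3 lowest, and the difference of 0.93 (SE 0.20, adjusted p = 0.0723 in limma) was the largest among the enzymes.

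Tpi1 (chr6:124760947-124761006), which interconverts the triose phosphates, read -1.41, -1.19 and -1.41 on the controls and -0.72, -0.85 and -0.81 on the mutants. The groups did not overlap, with a difference of 0.55 (SE 0.12, adjusted p = 0.0725 in limma). Eno1 (chr4:149618134-149618359), the enolase, read -1.64, -1.47 and -2.08 on the controls and -0.95, -1.05 and -0.96 on the mutants. Its mutant values were close together and its control values spread over 0.6, and the difference was 0.74 (SE 0.18, adjusted p = 0.0861 in limma). Without control 3, Aldoa (0.50, adjusted p = 0.0387) and Eno1 (0.57, adjusted p = 0.0406) passed the test in limma, in a fit in which 1470 genes, or 7.3%, passed.

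The remaining enzymes differed by 0.42 to 0.73. Aldoc, the aldolase best known from brain, differed by 0.47, and Gapdh, which oxidises the triose phosphate and is often used as a reference gene, by 0.47 (adjusted p = 0.126 in limma). Pgam1, the mutase before enolase, differed by 0.69, with mutant 1 at -0.80 against -1.57 and -1.55 on the other mutants, and by 0.43 without mutant 1. Pkm2, now named Pkm, the pyruvate kinase gene whose M2 form is typical of proliferating cells, differed by 0.73 and Ldha, which makes lactate, by 0.42. Ldha was the one gene of these 5 whose groups overlapped, since control 2 (0.02) lay above mutants 2 (-0.02) and 3 (0.00). Its difference was 0.24 without mutant 1 and 0.28 without control 3.

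**Figure D1:**
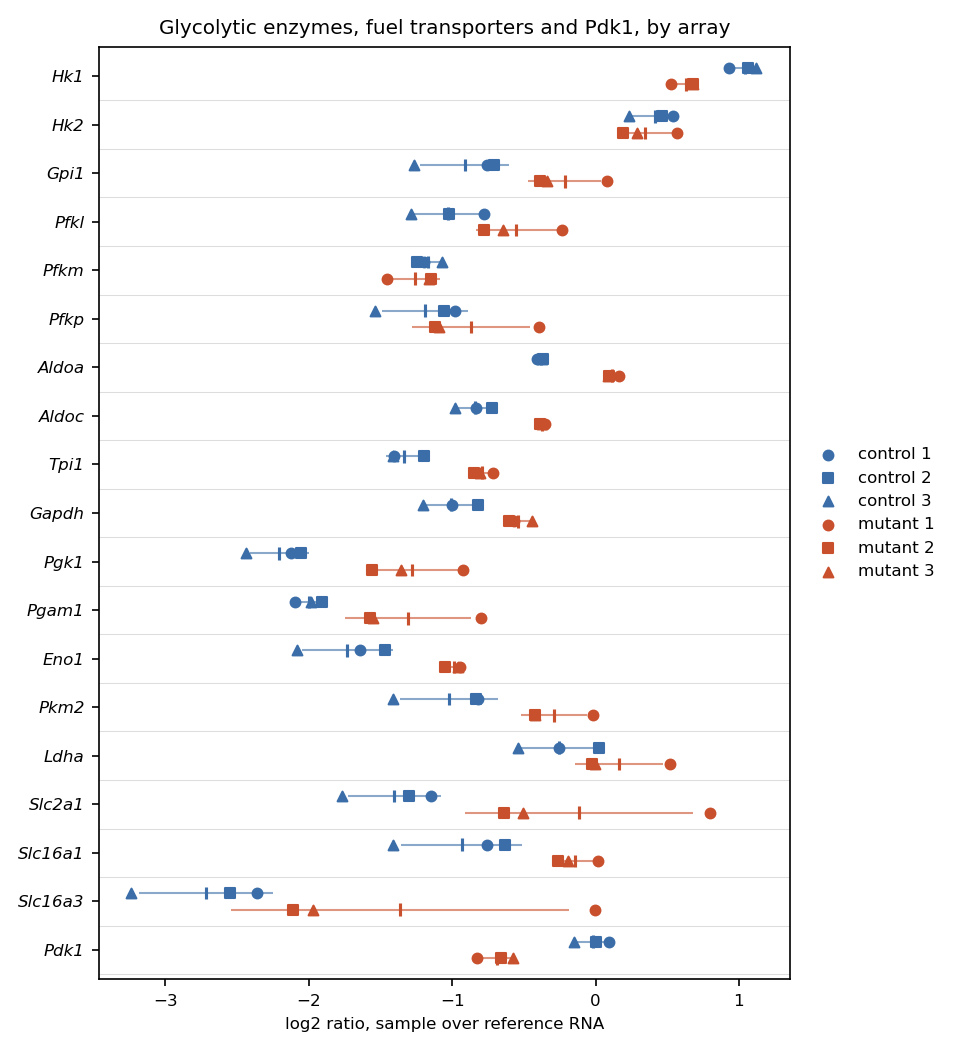
The log2 ratio of sample over reference RNA (x axis) for the 15 glycolytic enzymes, the 3 transporters and Pdk1, with 1 point for each of the 3 control arrays (blue) and 3 mutant arrays (red), a tick for the group mean and a line for its SD. Slc2a1 and Slc16a3 show mutant 1 far to the right of mutants 2 and 3, while the mutant points of Aldoa and Eno1 lie close together.

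The carriers differed more than most enzymes, and Pdk1 went the other way. Slc2a1 (chr4:118809864-118809923), the glucose transporter Glut1, read -1.15, -1.30 and -1.77 on controls 1 to 3 and 0.80, -0.64 and -0.51 on mutants 1 to 3. All mutants lay above all controls, with mutant 1 far above the other mutants, and the difference was 1.29 (SE 0.41, adjusted p = 0.137 in limma). Without mutant 1 it was 0.83 (adjusted p = 0.128 in limma), and without mutant 1 and control 3 it was 0.65.

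Slc16a3 (chr11:120820023-120820082), the lactate exporter Mct4, read -2.36, -2.55 and -3.24 on the controls and 0.00, -2.11 and -1.97 on the mutants. Mutants 2 and 3 lay just above controls 1 and 2, so that most of the difference of 1.35 (SE 0.59, adjusted p = 0.226 in limma) came from mutant 1 and control 3. It was 0.68 without mutant 1, 1.09 without control 3 and 0.41 without both. Slc16a1 (chr3:104460941-104461000), the monocarboxylate carrier Mct1, read -0.76, -0.63 and -1.41 on the controls and 0.02, -0.26 and -0.19 on the mutants. Its mutant arrays were close together and the difference was 0.79 (SE 0.23, adjusted p = 0.119 in limma).

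Pdk1 (chr2:71741820-71741879), the kinase that holds pyruvate back from the mitochondrion and a known target of the hypoxia response, read 0.09, 0.01 and -0.15 on the controls and -0.83, -0.66 and -0.58 on the mutants. It was lower on every mutant array than on any control array, by 0.67 on average (SE 0.13, adjusted p = 0.0548 in limma). Without control 3 the difference was -0.74 and passed (adjusted p = 0.0308 in limma). A second Pdk1 probe, however, differed by 0.06.

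Of the 13 hypoxia genes, Ndrg1 rose, 9 others had a difference above 0 that did not pass and 3 a difference below 0. The median difference was 0.44, and 0.25 without mutant 1. Groups did not overlap for Hif1a, Bnip3, Ndrg1, Ankrd37 and Ero1l with mutants higher (19.7% of all genes), and for Vegfa with mutants lower (18.2% of all genes). The median ratio of the 13 genes was -1.77, -1.90 and -2.17 on controls 1 to 3 and -1.16, -1.59 and -1.54 on mutants 1 to 3.

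Ndrg1 (chr15:66761057-66761116), a gene induced by hypoxia and in differentiating epithelia, read -2.87, -2.94 and -3.85 on the controls and -1.23, -1.77 and -1.64 on the mutants. Every mutant array lay above every control array by more than 1 log2 unit. The difference was 1.67 (SE 0.30, adjusted p = 0.0455 in limma), close to the threshold. The call was kept without control 3 (1.36, adjusted p = 0.0237) and lost without control 1 (1.85, 0.116), control 2 (1.81, 0.139), mutant 1 (1.52, 0.0938), mutant 2 (1.79, 0.145) or mutant 3 (1.72, 0.166), all in limma. Over all 21 alternatives the difference ran from 1.20 to 1.91 and the adjusted p from 2.7e-05 to 0.448, with 8 passing. With slide as a random block the adjusted p was 0.416.

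Hif1a (chr12:75047269-75047329), the oxygen-regulated subunit itself, read -1.04, -0.75 and -0.97 on the controls and 1.15, -0.09 and 0.01 on the mutants. All mutants were above all controls and mutant 1 was above the other mutants by more than 1 log2 unit. The difference was 1.28 (SE 0.34, adjusted p = 0.103 in limma). Without mutant 1 it was 0.88 and passed (adjusted p = 0.0466 in limma).

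Ero1l (chr14:45905723-45907426), an oxidase of the endoplasmic reticulum, read -2.48, -2.63 and -2.36 on the controls and -1.31, -2.03 and -2.05 on the mutants. The groups did not overlap, with a difference of 0.69 (SE 0.23, adjusted p = 0.148 in limma) that was 0.45 without mutant 1. Ddit4 (chr10:59412486-59412545), an inhibitor of mTOR complex signalling under stress, read -1.67, -1.38 and -2.07 on the controls and -0.88, -1.44 and -1.12 on the mutants. Control 2 lay above mutant 2, so the groups overlapped, and the difference was 0.56 (SE 0.23, adjusted p = 0.207 in limma).

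The other hypoxia genes differed by less than 0.6 in either direction. Bnip3, which drives mitophagy, differed by 0.53, of which 0.27 was left without mutant 1. Ankrd37, a small target of the hypoxia response, differed by 0.44, and by 0.25 without mutant 1. The peptide hormone gene Adm differed by 0.27, with values of 0.16 (without mutant 1) to 0.47 (without control 3) when 1 array was left out. The collagen prolyl hydroxylase subunits P4ha1 and P4ha2 differed by 0.26 and 0.52, but control 3 lay far below the other controls for both (-2.80 and -3.74). Without it they differed by -0.06 and 0.02.

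Vegfa, the main growth factor for blood vessels and a classic hypoxia target, read -0.69, -0.67 and -0.89 on the controls and -0.91, -1.01 and -0.96 on the mutants. Mutants were slightly lower without overlap, by 0.21 on average (SE 0.12, adjusted p = 0.324 in limma). Egln3, a prolyl hydroxylase that marks Hif1a for degradation, differed by -0.08 and Higd1a, a mitochondrial protein, by -0.05.

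Car9, the carbonic anhydrase most used as a tissue marker of hypoxia, had the widest spread among control arrays of any member (SD 1.30). It read -0.08, 0.05 and -2.26 on the controls and -0.76, -0.31 and -0.81 on the mutants. The difference was 0.13 with all arrays and -0.61 without control 3 (adjusted p = 0.102 in limma). Car9 is also made by glandular stomach epithelium. The summed sample signal of 11 glandular stomach markers was 1486000 and 1377000 on controls 1 and 2 and 6291 on control 3. It was 311300, 1220000 and 871200 on mutants 1 to 3. The part of these cells in the Car9 values was not tested.

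**Figure D2:**
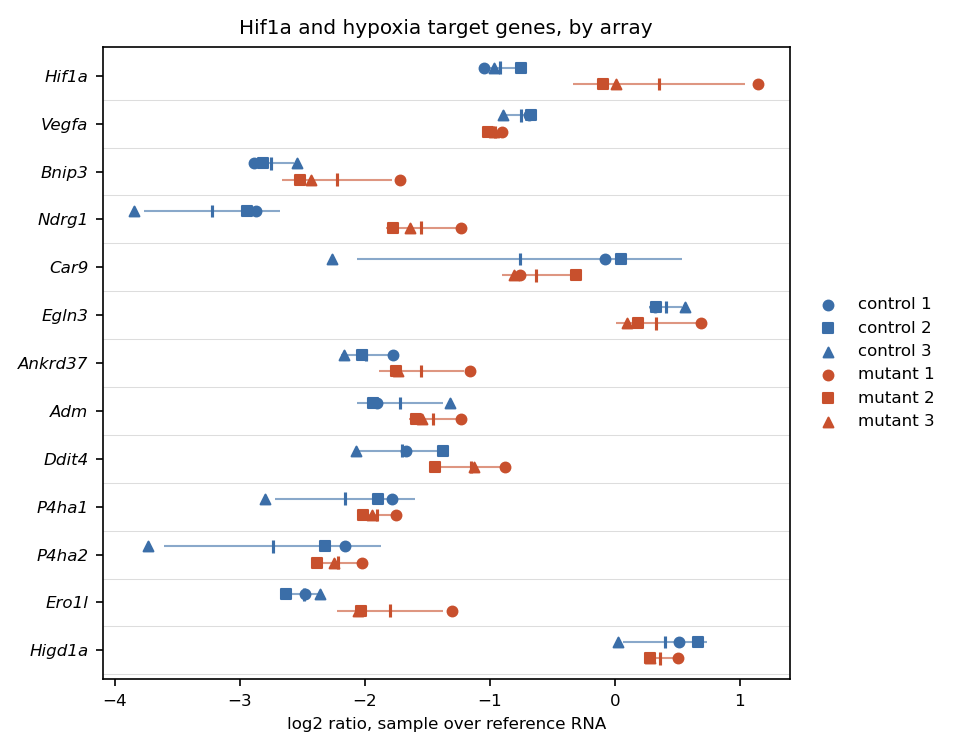
The log2 ratio of sample over reference RNA (x axis) for Hif1a and 12 hypoxia target genes, with 1 point for each of the 3 control arrays (blue) and 3 mutant arrays (red), a tick for the group mean and a line for its SD. Ndrg1 shows the widest gap between the groups, and control 3 lies far to the left of the other controls for Car9, P4ha1 and P4ha2.

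Mutant 1 and control 3 set much of the range seen in these genes. Mutant 1 was the highest of the 6 arrays for 12 of 15 enzymes, for all 3 carriers and for 10 of 13 hypoxia genes, 25 of 32 members in all, against 26.4% of all genes. Control 3 was the lowest of the 6 for 20 of the 32 members, against 38% of all genes. Mutant 1 exceeded the mean of mutants 2 and 3 most for Slc16a3 (2.04), Slc2a1 (1.37) and Hif1a (1.19). It stood closest to them for Aldoc (0.03), Gapdh (-0.05), Eno1 (0.06) and Aldoa (0.08).

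Leaving out both arrays left the pairs of near-identical arrays, in which the spread between replicates was small and 7598 genes (37.8%) passed the test. In that fit 22 of the 32 members passed, 17 with mutants higher and 5 with mutants lower (Hk1, Hk2, Pdk1, Vegfa and Higd1a). The differences there were smaller for most members. Ndrg1 stood at 1.20, Hif1a at 0.86, Pgk1 at 0.63, Eno1 at 0.55 and Aldoa at 0.48. When the near-identical arrays were averaged and counted as 1 sample each, 0 genes passed in limma (2152 at an unadjusted p below 0.05), and Ndrg1 differed by 1.91 with an adjusted p of 0.448.

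**Figure D3:**
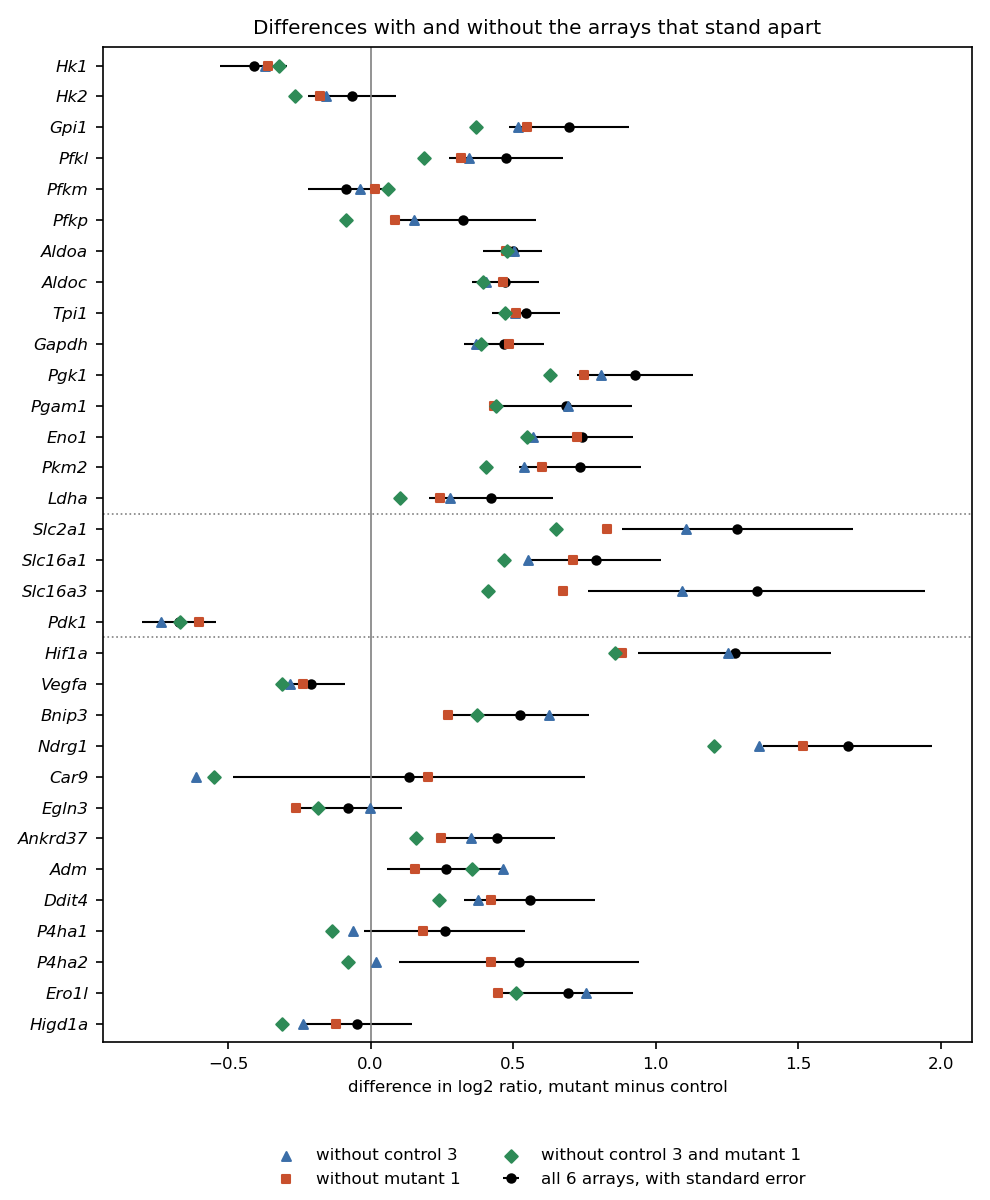
The difference in log2 ratio, mutant minus control (x axis), of each of the 32 members with all 6 arrays (black, with the standard error from limma) and without control 3 (blue), mutant 1 (red) or both (green). Slc2a1, Slc16a3 and Hif1a move towards 0 without mutant 1, Car9 crosses 0 without control 3, and Aldoa, Tpi1 and Pdk1 stay nearly where they were.

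Because every value is a ratio, both channels were looked at. They were rebuilt from the normalized ratio and the mean intensity of both channels, quantile-normalized between arrays. The rebuilt reference channel differed by 4.46 for the marker Ltf and by -1.91 for the marker Atp4a, although its RNA was the same. The split between channels thus depends on the normalization and is approximate. The sample channel differed by a median of 0.43 for the enzymes, 0.70 for transporters and Pdk1 and 0.30 for the hypoxia genes, against 0.00 over all genes. The reference channel, which holds the same RNA on all arrays, differed by a median of -0.08, -0.16 and -0.06 for these lists and -0.03 over all genes. The reference channel was lower on the mutant arrays for 22 of the 32 members and higher for 10. Over all genes it was higher for 8820 of 20131. For Slc2a1 the ratio difference of 1.29 was made of 0.82 for the sample and -0.47 for the reference, and for Hif1a 1.28 was made of 0.86 and -0.42. For Ldha the sample channel differed by 0.10 alone, and the reference channel by -0.33. For Aldoa 0.50 was made of 0.24 and -0.26, and for Ankrd37 0.44 was made of 0.17 and -0.27. For Ndrg1 the sample channel gave 1.49 of the 1.67.

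**Figure D4:**
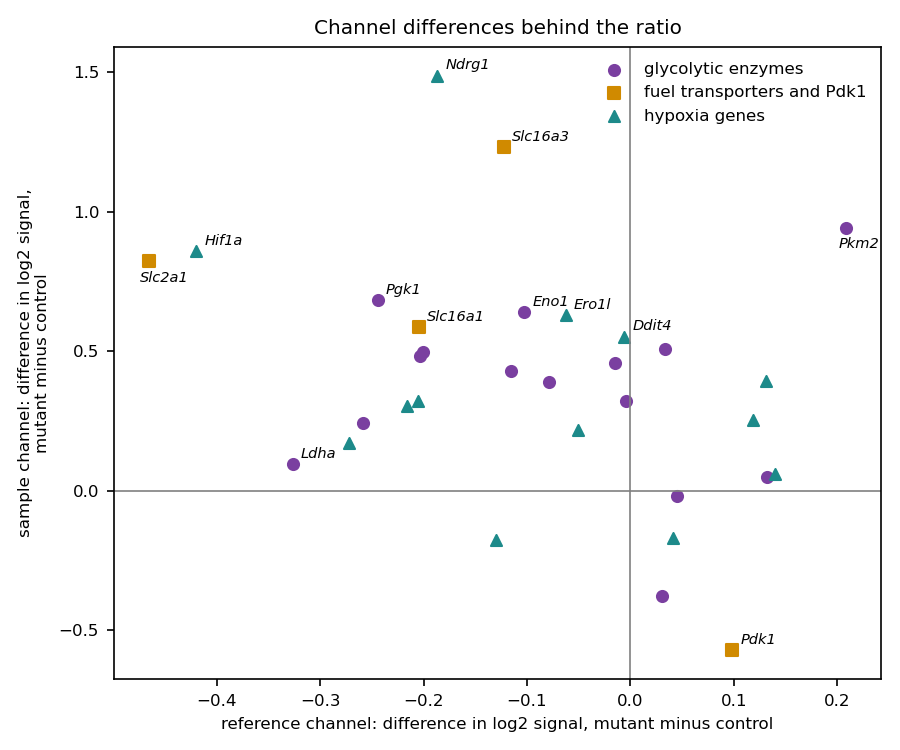
The difference in rebuilt log2 signal between mutant and control arrays in the sample channel (y axis) against the same difference in the reference channel (x axis) for the 32 members, by list. Ndrg1 and Slc16a3 lie highest, Slc2a1 and Hif1a farthest to the left and Pdk1 lowest.

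Probes of the same gene mostly, but not always, went the same way. The 15 members with several probes had 24 further probes, of which 6 differed in sign from the brightest one. These belonged to Gpi1 (-0.21), Pfkp (-0.21), Pdk1 (0.06), Vegfa (0.14 and 0.17) and P4ha2 (-0.58). Of these the P4ha2 probe was well above background on only 3 of the 6 arrays and the Gpi1 probe on 5. Second probes of Aldoa (0.51), Pgk1 (0.96) and Ero1l (0.49), and the further probes of Pkm2 (0.97 and 0.77) and Slc16a1 (0.98 and 1.37), had the same sign as the values given. The 5 further probes of Hk1 differed by -0.20 to -0.03, and 1 of them was well above background on 0 arrays. Gapdh, Tpi1 and Pgk1 have near-identical processed pseudogenes, with which their probes may share signal, and the file of control 3 places both Pgk1 probes on another chromosome than the other files do.

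Further genes of the same pathways were tested from lists that held no member. Of 38 further glycolysis genes, 23 had a difference above 0 (50.7% of all genes), 1 passed (2.88% of all genes) and the median was 0.03. The gene that passed was Fbp1, fructose bisphosphatase of gluconeogenesis, which opposes phosphofructokinase. It read -1.07, -1.21 and -1.40 on the controls and 1.59, 1.07 and 1.03 on the mutants. The groups lay far apart, and Fbp1 rose 5.49-fold (2.46, SE 0.19, adjusted p = 0.00595 in limma). The call was kept without any single array (adjusted p = 0.0087 to 0.048 in limma) and lost with slide as a random block (0.14) or with near-identical arrays averaged (0.253).

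Pfkfb1, a regulator of the fructose 2,6-bisphosphate that switches phosphofructokinase on, differed by 0.82 (adjusted p = 0.0593 in limma). Ldhb, the lactate dehydrogenase subunit of oxidative tissues, differed by -1.06 (adjusted p = 0.0769 in limma). It read 0.31, 0.17 and 0.05 on the controls and -1.41, -0.53 and -0.72 on the mutants, without overlap. Ldha and Ldhb thus had differences of opposite sign, 0.42 and -1.06, neither of which passed.

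Of 47 further hypoxia genes, 29 had a difference above 0 (50.7% of all genes), 3 passed (2.88% of all genes) and the median was 0.12. The transferrin receptor gene Tfrc rose by 1.36 (SE 0.17, adjusted p = 0.0211 in limma), and read -0.16, 0.01 and 0.11 on the controls and 1.04, 1.54 and 1.45 on the mutants. Its mutant 1 array was the lowest of the mutants, unlike in most members. Arnt2, a partner of hypoxia-inducible factors, rose by 0.79 (SE 0.14, adjusted p = 0.0432 in limma), with 2 of the 3 control arrays well above background at its probe. Ppfia4, a liprin, fell by 1.51 (SE 0.25, adjusted p = 0.0403 in limma). All 3 lost the call without control 1, control 2, mutant 2 or mutant 3, with adjusted p-values of 0.102 to 0.114 for Tfrc, 0.148 to 0.162 for Arnt2 and 0.126 to 0.148 for Ppfia4. They also lost it with slide as a random block (0.405, 0.569 and 0.583 in the same order) and with near-identical arrays averaged (0.448, 0.455 and 0.445). Tfrc passed in 15 of 21 alternatives, Ppfia4 in 9 of 21 and Arnt2 in 8 of 20. The chemokine receptor gene Cxcr4 differed by 1.09 (adjusted p = 0.0956 in limma), and by 0.35 at its other probe. The factor subunits Epas1 and Arnt differed by 0.20 and -0.06.

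Markers of other cells differed between arrays. For macrophages 6 of 6 markers had a difference above 0, and their summed sample signal was 26660 to 74080 on control arrays and 101200 to 138600 on mutant arrays. For neutrophils it was 7 of 7 markers, with 84260 to 164400 on control arrays and 747900 to 1508000 on mutant arrays, although S100a8 and S100a9 among them are also made by keratinocytes. Retnlg, Ngp and Csf3r were well above background on 0 control arrays and on all 3 mutant arrays. They passed the filter only through the mutants, so their sign adds nothing to the count. Ltf read 4.64, 4.49 and -0.15 on controls 1 to 3 and 3.21, 4.02 and 3.64 on mutants 1 to 3. Its difference above 0 came from control 3 alone, and controls 1 and 2 lay above every mutant. S100a9 was saturated in the sample channel on 3 arrays, so that its difference of 0.04 cannot be read and sums that hold it may be too low. Both sums separated the groups, and each was highest on mutant 1 and lowest on control 3. The sums of the endothelial, fibroblast and smooth muscle lists followed single arrays and not the groups. A difference above 0 was nevertheless found for 6 of 6 endothelial, 7 of 7 fibroblast and 3 of 6 smooth muscle markers. Endothelial markers summed to 27380 on mutant 1, 5903 on control 3 and 12160 to 14370 on the other arrays, with controls 1 and 2 above mutants 2 and 3. Fibroblast markers summed to 99400 on control 3 and 297100 to 336200 on the other arrays, and smooth muscle markers to 55520 on control 3, 69360 on mutant 1 and 286600 to 478300 on the others. The glandular stomach sum, like that of smooth muscle, was lowest on control 3 (6291) and next lowest on mutant 1 (311300). Myeloid cells and fibroblasts also express glycolytic enzymes, Slc2a1 and Hif1a. The part of these cells, or of glandular stomach and smooth muscle cells, in the members' values was not tested.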

How the data were processed

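RNA of forestomach epithelial sheets was compared on 2-colour Agilent arrays, 3 control and 3 mutant. The deposited spot intensity values comprise mean, local background and processed signals of both channels, as written by Agilent Feature Extraction 10.5.1.1 (10.7.3.1 for control 3) per the file headers, while the submitters' processing notes name version 9.1. Log10 ratios in the same deposited files served to set the direction, red (sample) over green (reference). The authors' deposited log2 ratios in table form were an alternative, with normalization not given in the sources used here. There the mutant 1 column was closest to the scanner values of mutant 3 (r = 0.973) and the mutant 3 column to those of mutant 1 (r = 0.969). Statements on single arrays follow the scanner files. Probe coordinates are those of the files, in build mm9 per the file headers, and no genome of that build was used, so exon or UTR position is not given.

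Background correction of the mean signals used normexp (offset 50), followed by within-array loess (limma 3.58.1, R 4.3.3). Control spots and outlier spots had no weight in the loess and were then left out. Values of single channels and the marker sums were rebuilt from these ratios and the mean intensities. The mean intensities were first quantile-normalized between arrays. A probe entered if its sample channel was well above background on 3 or more of 6 arrays. The brightest probe stood for a gene, which gave 20131 genes from 41174 probes, of which 33547 were named through RefSeq symbols and accessions and 266 had no name. Among the probes, 2 that only the file of control 3 names Gapdh or Tpi1 were not counted as members. Groups were compared with lmFit and eBayes, two-sided, with Benjamini-Hochberg adjustment over all genes and a threshold of 0.05. The small number of arrays, with 4 residual degrees of freedom, limits the precision. Promoter sequences are from RefSeq (GRCm38.p6).

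The members and all lists were chosen with earlier results of these data known, and no list was tested. Every member is given. Values on every array are given for the 4 members with the smallest p in each list and for Ndrg1, with Vegfa and Car9 added after their values were seen. Of the further lists each gene that passed is named, with those of smallest p, and Epas1, Arnt and Ldha against Ldhb were added after their values were seen. A red blood cell marker list is not reported here. The gene Kdr is in both the endothelial and the further hypoxia list. Alternatives concerned background correction, normalization, channel, the deposited table, the filter, the probe rule, slide, scan day, replicate number, array weights and arrays left out or averaged.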

Additional observations from a re-analysis of the deposited data

How the results depend on the processing

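Of 672 differences (32 members under 21 alternatives), 574 kept direction and side of the threshold, 55 passed only in the alternative, 13 lost the call, all of Ndrg1, and 30 of 8 members changed sign. The count of all genes that passed, 580 as reported, was 326 with processed signals, 269 with median centring, 309 for the sample channel alone, 4 with slide as a random block, 1470 with scan day as a block, 11445 with array weights, 0 with near-identical arrays averaged (2152 at an unadjusted p below 0.05 in limma) and 7598 without both control 3 and mutant 1. It was 34 (without mutant 2) to 1470 (without control 3) with 1 array left out. The 19 glycolysis genes, 0 of which passed as reported, held 1 with no filter (Pdk1), 2 with the mean over probes (Aldoc and Slc16a1), 3 with scan day as a block (Aldoa, Eno1 and Pdk1), 16 with array weights and 15 without both arrays, and 0 to 3 with 1 array left out. Of all genes, 2.23% passed with no filter, 3.1% with the mean over probes and 7.3% with scan day as a block. With array weights 56.9% of all genes passed, and without both arrays 37.8%. The 13 hypoxia genes, 1 of which passed as reported, held 10 with array weights, 7 without both arrays and 0 to 1 with 1 array left out. They held 0 with processed signals, scaled arrays, median centring, the sample channel alone, the deposited table, slide as a block or near-identical arrays averaged. The glycolysis median of 0.50 stayed between 0.38 and 0.68, and the hypoxia median of 0.44 was 0.16 without both arrays. The cause of these changes was not tested, except that scan day as a block removes control 3, which leaves the same comparison as without that array.

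Changed signs were all of differences that did not pass as reported. With median centring Hk2 was at 0.0596, Pfkm at 0.0217, Egln3 at 0.0279 and Higd1a at 0.0906, and in the sample channel alone Hk2 was at 0.0604, Pfkm at 0.0632 and Egln3 at 0.114. With near-identical arrays averaged Hk2 was at 0.0332 and Higd1a at 0.0846, with slide as a random block Higd1a was at 0.0159, and with the mean over probes P4ha2 was at -0.0315. With scan day as a block Car9 was at -0.614 and P4ha1 at -0.0604. With array weights Pfkm was at 0.0688, Pfkp at -0.0381, Car9 at -0.701 and P4ha1 at -0.0627. Without both arrays Pfkm was at 0.0621, Pfkp at -0.0855, Car9 at -0.548, P4ha1 at -0.137 and P4ha2 at -0.078. With 1 array left out Hk2 ran from -0.176 to 0.013, Pfkm from -0.139 to 0.0139, Car9 from -0.614 to 0.541, Egln3 from -0.262 to 0.0345, P4ha1 from -0.0604 to 0.45 and Higd1a from -0.236 to 0.0857. Sox2 was at 0.10 with scaled arrays.

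Replicate numbers were not taken to pair the arrays. Deviations of same-numbered arrays correlated at 0.005, 0.020 and 0.124, the last being the largest between any control and any mutant. Control 1 correlated best with mutant 2 (0.088). With 3 arrays in each group, some of them near-identical, these values cannot show whether a pairing exists. With the replicate block 127 genes passed, 0 of the glycolysis genes and 0 of the hypoxia genes among them, and Ndrg1 had an adjusted p of 0.0656 in limma. In the sample channel 62.6% to 76.2% of probes were well above background, which limits what can be said of dim genes but touched no probe that stood for a member.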
